A study of Mus musculus with 15 samples.

Results

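The genes described here encode the proteins of the cytosolic ribosome. They were taken as every gene of the deposited table whose symbol starts with Rpl or Rps followed by a digit, which gave 100 of 20610 genes. Of these, 73 are the main genes for ribosomal proteins, 43 of the large and 30 of the small subunit, and they are called core genes below. The other 27 are 8 paralogs of core genes, 8 rows of retrogenes or pseudogenes, 10 kinases whose symbols begin with Rps6k, and Rps19bp1, whose product binds a ribosomal protein. The kinases and Rps19bp1 share the symbol but are not parts of the ribosome. The pattern misses 6 further ribosomal genes, among them Rplp0, Rplp1, Rplp2, Rpsa and Fau, which are given apart.

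Neurons, astrocytes and microglia were separated magnetically from cortices of male wild-type mice aged 28 postnatal days, and each of these 3 groups has 5 polyA RNA-seq libraries. All groups share genotype, sex, age and tissue, and the labels name no treatment, no altered allele and no pooling of animals. The study compared gene expression between these cell types. Values are TPM, a relative transcript abundance in which a gene's reads are divided by its length and each library is scaled to the same total; TPM keep no read depth, so the depth behind each value is unknown. The labels do not say which animal gave which library, so p-values cover the spread among libraries, which may be technical.

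A cytosolic ribosome holds a copy of nearly every one of these proteins, and cells make them in matched amounts together with ribosomal RNA. Their mRNAs are short and abundant, and most begin with a run of pyrimidines, the 5′ terminal oligopyrimidine (TOP) motif, through which the kinase mTORC1 and the protein LARP1 control their translation. In brain, neurons carry ribosomes into dendrites, and mutations of single ribosomal protein genes cause disease in particular tissues, Diamond-Blackfan anaemia among them.

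Marker sums are given first, since the libraries are bulk samples. The 7 astrocyte markers summed to 17675 to 21033 TPM in astrocyte libraries and to 586 TPM at most elsewhere, and the 7 microglia markers to 45265 to 73449 TPM in microglia and to 153 TPM at most elsewhere. The 7 neuron markers reached 586 to 1447 TPM in the neuron libraries and at most 207 TPM in the others. In the same neuron libraries the 7 endothelial markers, such as Cldn5, summed to 7943 to 12066 TPM, against 772 to 1350 TPM in astrocytes and 97.5 to 197 TPM in microglia, and the 5 mural markers to 914 to 2281 TPM. The 6 oligodendrocyte markers ranged from 246 to 68974 TPM among the microglia libraries, with numbers 1 and 2 at the top, and from 112 to 10239 TPM among the neuron libraries, again with 1 and 2 at the top. The red blood cell marker Alas2 stood at 188 to 991 TPM in neurons and at 10.3 TPM at most elsewhere. The 14 immediate-early genes, such as Fos and Jun, which respond to cell dissociation among other stimuli, summed to 467 to 1662 TPM in neurons, 358 to 439 TPM in astrocytes and 1179 to 4707 TPM in microglia. Of these, 7 were higher in neurons than in astrocytes and none lower, and 9 were higher in microglia than in astrocytes and 1 lower. Over all genes tested below, 26.2% were higher and 28.5% lower in neurons than in astrocytes. In microglia 16.3% were higher and 55.9% lower than in astrocytes. The part of the immediate-early genes in the results below was not tested. No marker of these lists was at 0 in all libraries of any group. Every result below that involves neurons is therefore one for the libraries labelled neuron, in which neuronal and endothelial RNA cannot be told apart. In microglia libraries 1 and 2 the oligodendrocyte sums, 68974 and 50903 TPM, were above the microglia sums, 48651 and 45265 TPM. Results for microglia are likewise for the libraries of that label, in which microglial and oligodendrocyte RNA cannot be told apart. In all groups fewer cells of a type and less RNA per cell cannot be told apart either.

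The 73 core genes together held the largest share of all TPM in neurons and the smallest in astrocytes. Their summed level was 70917, 71953, 52204, 52720 and 54683 TPM in neuron libraries 1 to 5. Astrocyte libraries had 26618, 29333, 18990, 20004 and 24340 TPM, and microglia libraries 40734, 44609, 39181, 30399 and 32744 TPM. The 3 ranges did not overlap, and libraries 1 and 2 were the highest of each cell type. As means these were 60496 ± 10036, 23857 ± 4370 and 37534 ± 5849 TPM (SD, n = 5), or 6.05%, 2.39% and 3.75% of all TPM. The neuron mean was 2.54 times the astrocyte mean and 1.61 times the microglia mean, and the microglia mean was 1.57 times the astrocyte mean. After median-of-ratios scaling, which sets the middle gene of each library level, neurons (40147 to 75582) and microglia (39842 to 60697) overlapped, while astrocytes (13332 to 29712) stayed below both. Without Rpl41, the most abundant core gene in neurons and astrocytes, the neuron mean was 2.48 and 1.55 times those of astrocytes and microglia.

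**Figure D1:**
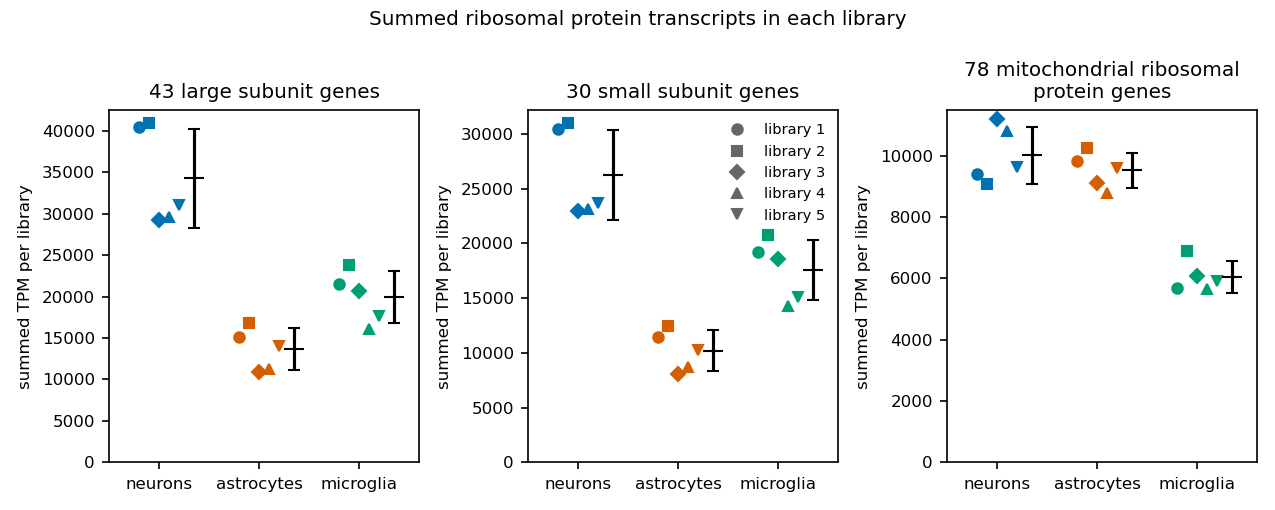
Summed TPM (vertical axis) of large subunit, small subunit and mitochondrial ribosomal protein genes in each of the 15 libraries, by cell type (horizontal axis); symbols mark library numbers, and black bars give the mean and SD (n = 5). Cytosolic sums were highest in neurons and lowest in astrocytes, whereas the mitochondrial sums of neurons and astrocytes overlapped and those of microglia were lowest.

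The same order did not hold for the other ribosome of these cells. The 78 genes of mitochondrial ribosomal proteins, which translate the few mRNAs of the mitochondrial genome, summed to 10015 ± 926 TPM in neurons, 9518 ± 584 TPM in astrocytes and 6042 ± 510 TPM in microglia (SD, n = 5). Neurons and astrocytes overlapped there, with a ratio of 1.05, and both lay above microglia without overlap, at 1.66 and 1.58 times its mean, although gene by gene this lead over microglia was a median of 0.08 and 0.12 on the log2 scale after median-of-ratios scaling. In TPM as deposited, astrocytes thus had the lowest sum of cytosolic genes but not of mitochondrial ones. The mitochondrial sums were not rescaled.

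The ratio of the subunit sums, which scaling a library as a whole cannot change, was lower in microglia than in the other cell types. The summed TPM of large subunit genes over that of small subunit genes was 1.327, 1.321, 1.276, 1.278 and 1.309 in neuron libraries 1 to 5 and 1.320, 1.347, 1.356, 1.297 and 1.365 in astrocytes. In microglia it was 1.124, 1.150, 1.111, 1.125 and 1.167. All 5 microglia libraries lay below all 10 others, and neurons and astrocytes overlapped. Single genes weigh on these sums. Rpl41 and Rpl38 of the large subunit made up 7.53% and 2.55% of the core sum in neurons. Their shares were 5.47% and 1.89% in astrocytes, and 4.17% and 0.909% in microglia. The ratio was not taken without these genes, so it does not show a difference across the large subunit as a whole. No p is given for the ratios of subunit sums, because the members were chosen with results known.

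Levels of single core genes spanned more than an order of magnitude within a cell type. In neurons group means ran from 146 TPM (Rpl12) to 4729 TPM (Rpl41), with a median of 563 TPM over the 73 genes. The medians were 244 TPM in astrocytes and 344 TPM in microglia. The 5 most abundant genes held 24.8% of the core sum in neurons, 21.2% in astrocytes and 25.1% in microglia. Rpl41, which encodes a very short basic peptide between the subunits, was the most abundant in neurons and astrocytes. In microglia Rps27 and Rps29 were among the 5 highest, with group means of 2064 and 1650 TPM against 1604 TPM for Rpl41; the gap between Rps29 and Rpl41 was smaller than their spread over the libraries. Rpl12, Rpl22 and Rps20 were the 3 lowest over all libraries.

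Group means followed the order neurons, microglia, astrocytes in 65 of the 73 core genes, and in 8.01% of the 13351 genes that entered the tests. In 6 genes, Rpl24, Rpl27, Rpl28, Rpl31, Rpl35 and Rpl38, all of the large subunit, microglia had the lowest mean. In Rpl10 and Rps9 microglia had the highest. The full order without any overlap between neighbours held in 17 core genes, against 0.360% of the genes tested, among them Rpl3, which lies near the peptidyl transferase centre, Rpl11, Rps6 and Rps18. For the other genes at least 1 pair of neighbouring groups overlapped or the order was another.

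**Figure D2:**
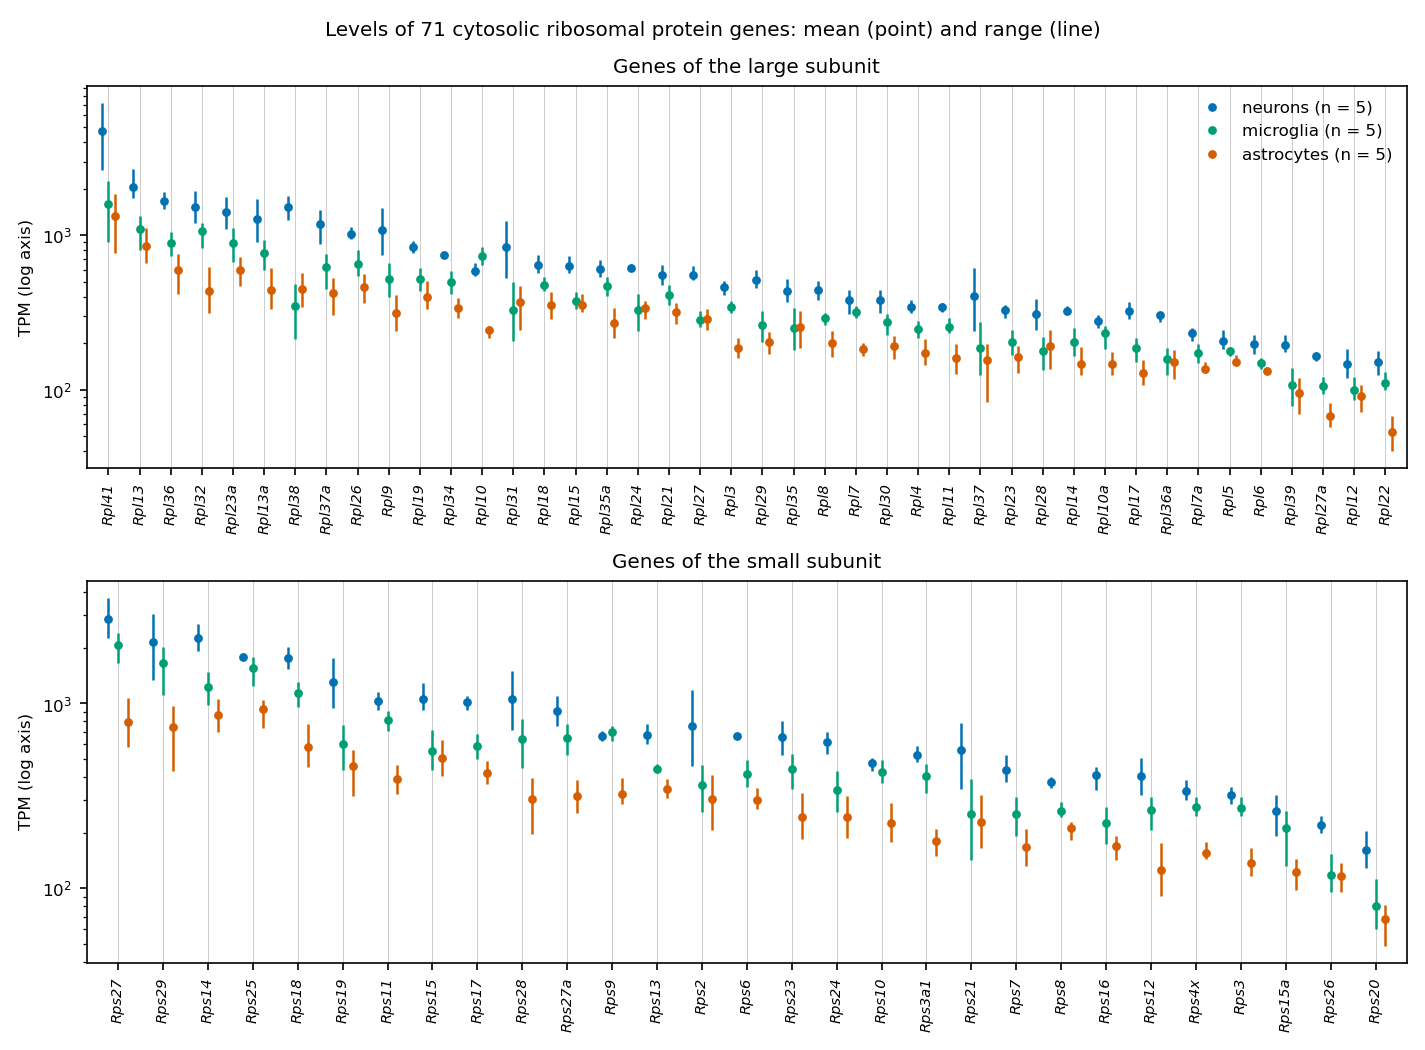
Level in TPM (log axis) of each of 71 core genes (horizontal axis, ordered by mean over 15 libraries), with the mean as a point and the range over 5 libraries as a line for each cell type. Neurons are the top group in all genes but Rpl10 and Rps9, and the range of astrocytes lies below that of neurons in every gene.

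The stretches around the transcription starts are shown for members on which the results below turn. Each line gives, on the gene's strand, 60 bases before and 25 bases from the annotated start, from the RefSeq promoter table of build GRCm38.p6. Capitals mark 4 motifs, searched on the gene's strand and as reverse complements on the other. The first was CTTTCC, a run of pyrimidines such as TOP mRNAs start with. The second was CCGGAAG, the core of sites for ETS factors. The others were the GC box GGGCGG and the TATA box TATAAA. The pyrimidine run can overlap a GC box on the other strand by a single C, and the TATA box can overlap its own reverse complement. The motifs were chosen after some of these windows had been read. Rpl38 and Rpl10 are shown as the core genes that departed farthest from the rest, Rpl41 and Rps27 as the most abundant of each subunit in neurons, and Rpl22 with Rpl22l1 as paralogs whose ratio differed between cell types.

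Rpl38: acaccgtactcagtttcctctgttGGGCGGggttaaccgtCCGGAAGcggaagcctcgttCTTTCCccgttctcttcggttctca

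Rpl10: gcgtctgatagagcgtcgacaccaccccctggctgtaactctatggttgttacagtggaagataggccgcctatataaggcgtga

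Rpl41: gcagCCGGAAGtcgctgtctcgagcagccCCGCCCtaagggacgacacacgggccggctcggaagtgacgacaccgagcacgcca

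Rps27: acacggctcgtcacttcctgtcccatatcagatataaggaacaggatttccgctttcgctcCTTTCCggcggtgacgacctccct

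Rpl22: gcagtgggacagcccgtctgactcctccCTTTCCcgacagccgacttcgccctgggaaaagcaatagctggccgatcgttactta

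Rpl22l1: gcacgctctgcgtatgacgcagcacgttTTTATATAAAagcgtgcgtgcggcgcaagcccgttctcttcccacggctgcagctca

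These windows lie at chr11:114668520-114668604 on the plus strand (Rpl38), chrX:74270756-74270840 plus (Rpl10), chr10:128549144-128549228 minus (Rpl41), chr3:90213624-90213708 minus (Rps27), chr4:152325666-152325750 plus (Rpl22) and chr3:28805448-28805532 plus (Rpl22l1). Rpl22 had a second annotated start, which is not shown. In the lines above, Rpl38 carries a GC box and CCGGAAG before its start and CTTTCC at its start. Rps27 carries CTTTCC just after its start. Rpl22 carries it only before the annotated start shown, so outside the mRNA that begins there. Rpl10 carries none of the 4 motifs. Rpl22l1 carries TATAAA on both strands, in one palindromic run.

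Over the whole windows, 250 bases before to 50 after a start, 54 of the 73 core genes had an entry. CCGGAAG stood on the gene's strand in 27.8% of these 54 genes against 5.40% of the 27025 genes in the table, and CTTTCC in 38.9% against 16.0%. GGGCGG was found in 31.5% against 25.6%, and TATAAA in 7.41% against 9.77%. On either strand the shares were 40.7% against 9.93% for CCGGAAG, 50% against 29.3% for CTTTCC, 59.3% against 38.2% for GGGCGG and 9.26% against 15.7% for TATAAA. These are matches of letters near annotated starts and say nothing of which factor binds there.

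Neurons were compared with astrocytes first. Differences are in log2(TPM + 1), fitted in 1 model over all 15 libraries for the 13351 genes that reached 1 TPM or more in 5 or more libraries, and a gene passed when its adjusted p was below 0.05. All 73 core genes were higher in neurons, and by limma none was lower (0 also at an unadjusted p below 0.05); over all genes tested, 26.2% passed as higher in neurons and 28.5% as higher in astrocytes. A difference of at least 2-fold was reached by 55 of the 73, against 12.9% of all genes, and by none in the other direction, against 12.7%. In each of the 73 the 5 neuron libraries lay above the 5 astrocyte libraries, as they did in 18.8% of all genes tested. The median difference of the core genes was 1.22 on the log2 scale, against −0.03 over all genes tested, and single genes ran from 0.42 (Rpl5) to 1.84 (Rps27). The counts were 73 after median-of-ratios scaling, after quantile normalization and without libraries 1 and 2 of every cell type, with medians of 1.29, 1.13 and 1.23; over all genes 30.3% and 31.5% were higher in neurons with these 2 scalings. With libraries 3 and 4 left out 72 passed.

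The 8 core genes with the largest differences were Rps27, Rpl32, Rpl38, Rps28, Rpl41, Rpl9, Rps12 and Rps18, between 3.08-fold and 3.59-fold higher in neurons. Rps27, a zinc-binding protein of the small subunit, stood at 3609, 3714, 2266, 2250 and 2473 TPM in neurons, at 919, 1066, 583, 611 and 809 TPM in astrocytes and at 2277, 2417, 2216, 1646 and 1766 TPM in microglia. The lowest neuron library was above 2 times the highest astrocyte library, and microglia overlapped neurons. Its difference between neurons and astrocytes was 1.84 ± 0.19 (log2, SE), with an adjusted p of 3.44e-07.

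Rpl32 had 1944, 1920, 1193, 1234 and 1333 TPM in neurons and 472, 623, 322, 315 and 452 TPM in astrocytes. The difference was 3.52-fold with an adjusted p of 4.92e-07, and the lowest neuron library was again far above the highest astrocyte library. Rps28, a small protein at the mRNA exit channel, was 3.42-fold higher in neurons, with 717 to 1489 TPM against 197 to 395 TPM. Rps12 (3.24-fold) and Rps18 (3.08-fold), both of the small subunit head or beak region, and Rpl9 (3.36-fold) completed this set with adjusted p-values from 4.72e-08 to 1.54e-06.

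Rpl41 showed the widest spread among libraries. It stood at 6881, 7135, 2641, 2936 and 4054 TPM in neurons, at 1594, 1842, 771, 978 and 1493 TPM in astrocytes and at 2240, 2240, 1377, 908 and 1255 TPM in microglia. In every cell type libraries 1 and 2 were the highest, and the neuron libraries still lay above all others. Neurons were 3.42-fold above astrocytes (adjusted p = 0.000158) and 2.87-fold above microglia (adjusted p = 0.000415), and the latter difference had an adjusted p of 0.0704 after median-of-ratios scaling.

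The smallest differences between neurons and astrocytes belonged to Rpl5, Rpl6, Rpl12 and Rpl28 of the large subunit. Rpl5, which with Rpl11 carries the 5S ribosomal RNA and binds the p53 regulator Mdm2, stood at 191, 185, 225, 245 and 183 TPM in neurons and at 146, 147, 153, 169 and 147 TPM in astrocytes. Even here every neuron library was above every astrocyte library, by 1.34-fold in the mean (adjusted p = 0.00267). Its partner Rpl11 was 2.16-fold higher in neurons (adjusted p = 4.39e-07), so the 5S pair did not differ to the same extent. Rpl6 was 1.48-fold, Rpl12 1.59-fold and Rpl28 1.61-fold higher; without libraries 3 and 4 the adjusted p of Rpl28 was 0.0976.

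Grouped by their place in the ribosome, the core genes differed in the same direction. For comparison, 55 of all 73 core genes and 12.9% of all genes tested were at least 2-fold higher in neurons. The 8 listed genes around the exit of the peptide tunnel had a median log2 difference of 1.15, with 7 of them at least 2-fold higher in neurons. The 4 listed genes of the decoding site and mRNA channel (Rps2, Rps3, Rps9 and Rps23) were all at least 2-fold higher, with a median of 1.23. The 4 of the mRNA exit platform, Rps14, Rps26 and Rps28 among them, had a median of 1.35. The 9 genes listed for Diamond-Blackfan anaemia, Rps19 among them, ran from 0.42 to 1.47 with a median of 1.17. Rps6, the target of the S6 kinases, was 2.22-fold and Rps27a, which is made as a fusion with ubiquitin, 2.86-fold higher in neurons.

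The 6 ribosomal genes outside the symbol pattern did the same. Rplp0, Rplp1 and Rplp2 form the stalk that recruits translation factors, Rpsa binds the small subunit, and Fau encodes a fusion with a ubiquitin-like protein. All 6 were higher in neurons than in astrocytes, against 26.2% of all genes tested, with a median log2 difference of 1.31. Rplp1 stood at 2350, 2736, 1322, 1325 and 1702 TPM in neurons and at 815, 930, 452, 463 and 702 TPM in astrocytes, without overlap. It was 2.80-fold and Fau 1.70-fold higher in neurons.

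Other lists of the translation pathway gave fewer passing genes than the core. Over all genes tested, 26.2% passed as higher in neurons and 28.5% as higher in astrocytes. Among 19 further genes with TOP mRNAs, 16 were higher in neurons and none lower, with a median of 0.71; Eef1a1, the main elongation factor that brings aminoacyl-tRNA to the ribosome, was 2.84-fold, Tpt1 2.83-fold, Pabpc1 2.66-fold and Eef2 1.93-fold higher. Among 38 initiation factors 12 were higher and 5 lower (median 0.09). Among 14 elongation and termination factors, some of which are also TOP genes, 6 were higher and 1 lower (median −0.05). Of 25 biogenesis factors 11 were higher and 3 lower, of 17 genes of the mTORC1 and LARP1 pathway 2 were higher and 4 lower, and of 7 ribosomal protein chaperones 2 were higher and 1 lower. Mitochondrial ribosomal protein genes split into 10 higher and 22 lower of 78, with a median of −0.13. The shares of initiation factors higher and of mitochondrial genes lower in neurons were near those of all genes.

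Neurons and microglia differed in how all genes lay, not only these. The median difference over all genes tested was 0.48 towards neurons, and 52.5% of all genes passed as higher in neurons and 16.0% as higher in microglia. Of the core genes 62 were higher in neurons, 1 (Rpl10) was lower and 10 did not pass. At least 2-fold was reached by 8, against 29.5% of all genes tested, and by none towards microglia, against 9.74%. The median core difference was 0.66, which is 0.18 above the median of all genes. Median-of-ratios scaling moves the median of all genes by −0.51, quantile normalization by −0.45 and a correction for transcript length by −0.46, and the calls depend on this: 2, 34 and 12 core genes were then higher in neurons and 6, 2 and 10 higher in microglia, with core medians of 0.05, 0.26 and 0.06. Over all genes tested, 33.6%, 35.6% and 34.9% were higher in neurons under these settings and 34.3%, 32.9% and 32.4% higher in microglia. Without libraries 1 and 2 of every cell type 61 were higher and 1 lower, and without microglia libraries 1 and 2 alone 62 and 1.

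Rpl38 and Rpl10 lay at opposite ends of the core genes, and their calls against microglia held under every scaling tried. Rpl38, a small protein of the large subunit whose loss in mice disturbs patterning of the axial skeleton, lies at chr11:114668524-114672331 on the plus strand (GENCODE vM21, mm10). It stood at 1795, 1650, 1462, 1497 and 1256 TPM in neurons, at 537, 568, 376, 345 and 435 TPM in astrocytes and at 430, 486, 332, 212 and 280 TPM in microglia. Every neuron library was above 2 times every other library, and astrocytes and microglia overlapped. The neuron level was 4.55-fold that of microglia (log2 difference 2.19 ± 0.20, SE, adjusted p = 2.64e-08) and 3.42-fold that of astrocytes (adjusted p = 7.79e-07). Its difference from microglia was 1.53 above the core median on the log2 scale. Between astrocytes and microglia it differed by 0.41 (adjusted p = 0.0737), with adjusted p-values of 0.00283 without microglia libraries 1 and 2 and 0.0114 with the library number as a block, in both cases higher in astrocytes.

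Rpl10, an X-linked gene at chrX:74270812-74273135 on the plus strand whose product joins the large subunit last and sits beside the tRNA sites, had the opposite pattern. It stood at 572, 549, 659, 613 and 548 TPM in neurons, at 242, 258, 245, 216 and 257 TPM in astrocytes and at 644, 710, 839, 753 and 705 TPM in microglia. The astrocyte libraries were the lowest without overlap, and the lowest microglia library lay within the range of neurons. Microglia were 1.24-fold above neurons (adjusted p = 0.0131) and 2.98-fold above astrocytes (adjusted p = 2.31e-10), and neurons were 2.40-fold above astrocytes (adjusted p = 1.36e-08). Unlike the core sum, Rpl10 was not highest in libraries 1 and 2 of neurons or microglia but in library 3 of each.

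Set against each other, Rpl38 and Rpl10 give a ratio that scaling a library as a whole cannot change. Rpl38 over Rpl10 was 3.14, 3.01, 2.22, 2.44 and 2.29 in neurons, 2.22, 2.20, 1.53, 1.60 and 1.69 in astrocytes and 0.668, 0.684, 0.395, 0.282 and 0.397 in microglia. In microglia Rpl10 exceeded Rpl38 in all 5 libraries, and in all 10 others Rpl38 exceeded Rpl10; the lowest neuron and the highest astrocyte library met at 2.22. The pair was picked for this difference, so the ratio is a description without a test.

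**Figure D3:**
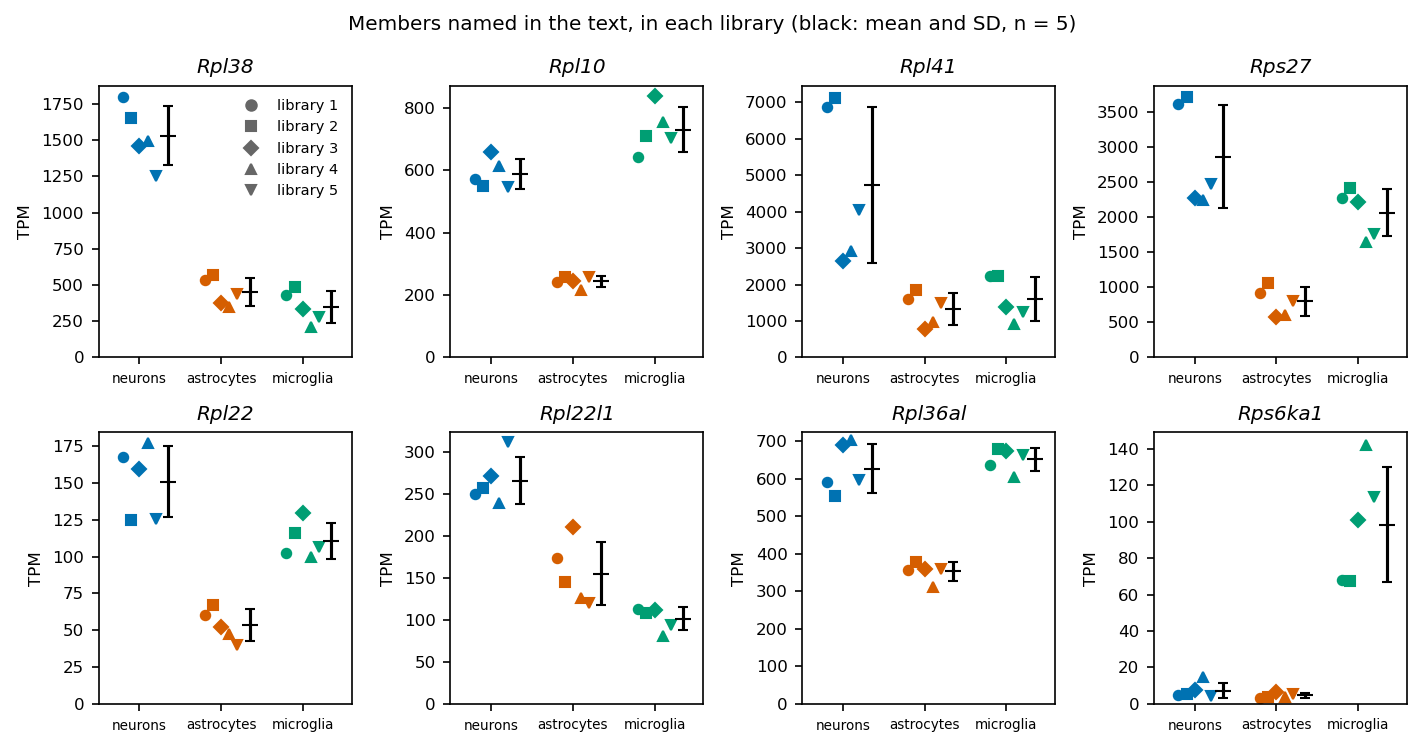
TPM (vertical axis, from 0) of 8 members in each library, by cell type (horizontal axis); symbols mark library numbers and black bars the mean and SD (n = 5). Rpl38 is highest in neurons, Rpl10 is lowest in astrocytes and highest in microglia, Rpl41 and Rps27 are highest in neuron libraries 1 and 2, and Rps6ka1 is highest in microglia.

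The other core genes named as higher in neurons than in microglia were Rpl41, Rpl31, Rps19, Rpl9, Rps20, Rpl27 and Rpl29. Rpl31, at the tunnel exit, stood at 1118, 1234, 529, 555 and 750 TPM in neurons and at 412, 497, 291, 205 and 247 TPM in microglia. That was 2.51-fold (adjusted p = 0.000328), and the groups did not overlap, although the lowest neuron library was close to the highest microglia library. Rps19, the gene most often mutated in Diamond-Blackfan anaemia, was 2.13-fold higher (adjusted p = 0.000214), Rps20 2.01-fold (adjusted p = 0.000113) and Rpl27 1.96-fold (adjusted p = 5.48e-07). Of these 7 only Rpl27 stayed below 0.05 after median-of-ratios scaling, where the adjusted p-values of the other 6 ran from 0.0704 to 0.257.

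At the other end, Rps9 of the decoding region, Rps25 and Rpl5 did not pass against microglia. Rps9 stood at 645, 637, 709, 710 and 624 TPM in neurons and at 693, 758, 760, 649 and 630 TPM in microglia, with overlapping ranges (adjusted p = 0.607). After median-of-ratios scaling, quantile normalization or length correction it was higher in microglia, by 0.68, 0.46 and 0.62 on the log2 scale, with adjusted p-values from 5.64e-06 to 0.00158. Rps25 had 1740 to 1873 TPM in neurons and 1248 to 1790 TPM in microglia (adjusted p = 0.167).

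Of the 6 genes outside the pattern 5 were higher in neurons than in microglia, and Fau was not (754 to 842 against 665 to 865 TPM); after median-of-ratios scaling none was higher and 1 was lower. TOP genes, initiation factors and biogenesis factors lay near the median of all genes, 0.48. Over all genes tested, 52.5% were higher in neurons and 16.0% higher in microglia. Of 19 TOP genes 13 were higher and none lower (median 0.59). Of 38 initiation factors 25 were higher and 1 lower (0.47), and of 25 biogenesis factors 14 and 4 (0.47). Of 78 mitochondrial ribosomal protein genes 63 were higher and none lower (0.68). Their median was 0.20 above that of all genes, and the core median 0.18 above. With median-of-ratios scaling, 5 TOP genes were higher and 5 lower, and the counts were 5 and 13 for initiation factors, 3 and 8 for biogenesis factors, and 14 and 12 for mitochondrial genes, against 33.6% higher and 34.3% lower over all genes tested with that scaling. Eef1a2, the elongation factor of mature neurons, was 5.27-fold higher in neurons than in microglia, at 3.27 to 11.1 TPM against 0 to 1.40 TPM.

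Astrocytes were below microglia in the core genes although most genes lay the other way. Of all genes tested 55.9% passed as higher in astrocytes and 16.3% as higher in microglia, with a median of 0.57 towards astrocytes. Of the core genes none was higher in astrocytes by limma (0 also at an unadjusted p below 0.05), 51 were higher in microglia and 22 did not pass. At least 2-fold was reached by 12, against 10.2% of all genes, and by none towards astrocytes, against 32.3%. The core median was −0.51, which is 1.08 below that of all genes. The distance from zero grew with scaling: median-of-ratios scaling moves the median of all genes by −0.54, and 69 core genes were then higher in microglia, with a core median of −1.20, while quantile normalization gave 63 and −0.76. Over all genes 34.1% and 32.0% were then higher in microglia. Without microglia libraries 1 and 2 the counts were 43 higher in microglia and 1 (Rpl38) higher in astrocytes.

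After Rpl10, differences among the largest were those of Rps27 (2.63-fold higher in microglia), Rpl32 (2.47-fold), Rps29 (2.25-fold), Rps3a1 (2.23-fold), Rps9 (2.16-fold) and Rps12 (2.14-fold). Rps29, a zinc-binding protein of the small subunit head, had 431 to 971 TPM in astrocytes and 1117 to 2025 TPM in microglia (adjusted p = 0.000801). Rps3a1 had 149 to 211 TPM in astrocytes against 328 to 468 TPM in microglia (adjusted p = 1.17e-07).

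By place, the 4 listed genes of the decoding site and mRNA channel had a median of −0.93, with 3 of them higher in microglia, and the 8 at the tunnel exit one of −0.44, with 5 higher in microglia. Outside the pattern 5 of the 6 ribosomal genes were higher in microglia (median −0.75). TOP genes were divided, with 7 of 19 higher in astrocytes and 6 higher in microglia (0 and 15 after median-of-ratios scaling), and Eef1a1 was 2.67-fold higher in microglia. Mitochondrial ribosomal protein genes lay the other way, with 65 of 78 higher in astrocytes and 1 higher in microglia. Over all genes tested these shares were 55.9% and 16.3%. After median-of-ratios scaling the mitochondrial counts were 21 and 12, against 35.3% of all genes higher in astrocytes and 34.1% higher in microglia.

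Within each library the core genes were compared with one another as shares of the core sum. The SD over the 73 log2 differences was 0.31 for neurons against astrocytes, 0.36 for neurons against microglia and 0.41 for astrocytes against microglia. The core medians were 1.22, 0.66 and −0.51, so the spread was small beside the shift only for neurons against astrocytes. Within 0.5 of the core median lay 63, 66 and 55 of the 73 genes. Rpl38 made up 2.55% of the core sum in neurons, 1.89% in astrocytes and 0.909% in microglia, and Rpl10 0.999%, 1.04% and 1.99%. Rpl5 made up 0.351%, 0.660% and 0.482%, so its share was highest in astrocytes.

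**Figure D4:**
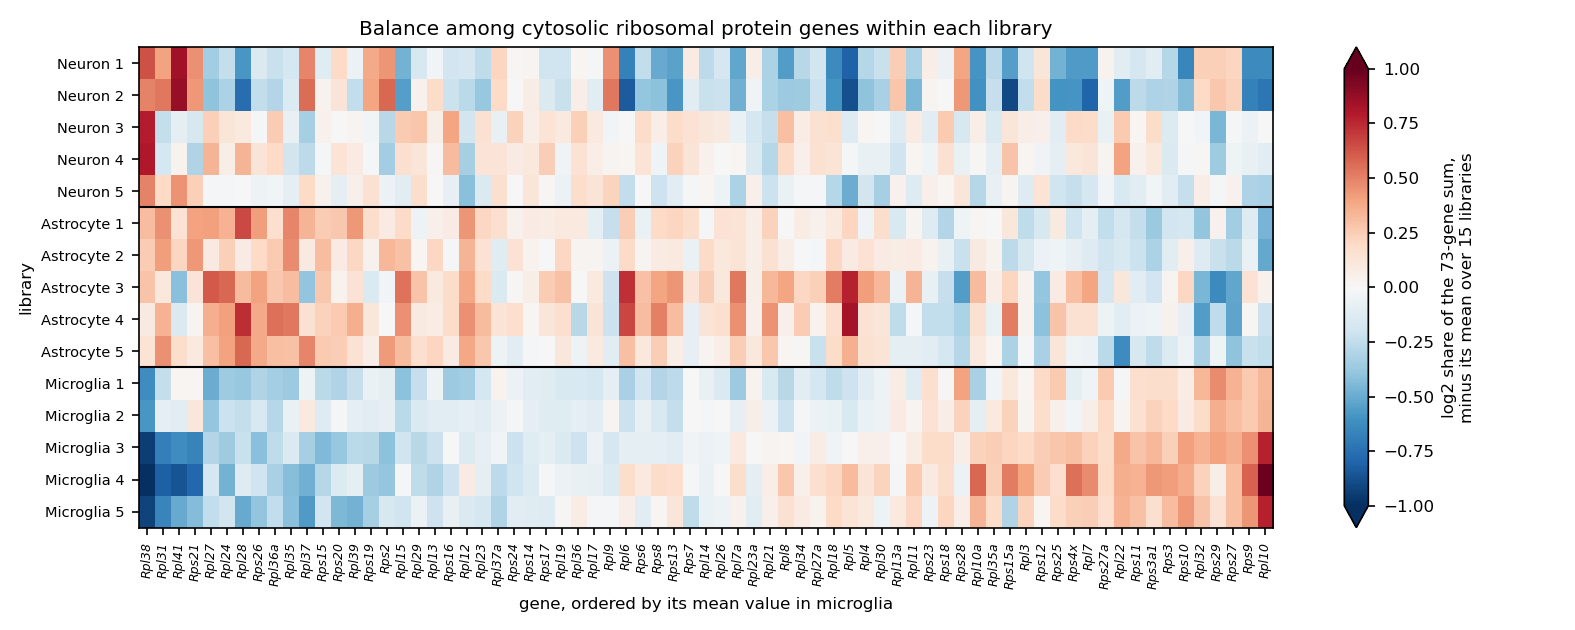
Colour gives the log2 share of each of 71 core genes (horizontal axis) in the core sum of each library (vertical axis), minus its mean over the 15 libraries; the scale ends at −1 and 1. Rpl38 at the left is low and Rpl10 at the right is high in all 5 microglia libraries, and neuron libraries 1 and 2 differ from neuron libraries 3 and 4 in many genes.

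Libraries of a cell type were not alike in this balance, and transcript length moved with it. Annotated transcript lengths of the core genes (GENCODE vM21) ran from 345 bases (Rps27) to 5130 bases (Rps15a), with a median of 827. They need not be the lengths of the mRNAs expressed in these cells. In neurons, the 15 shortest (at most 560 bases) had a median of 1.5 times as much in libraries 1 and 2 as in libraries 3 and 4, and the 15 longest (at least 1109 bases) 1.07 times. In astrocytes these ratios were 1.53 and 1.26, and in microglia 1.31 and 1.08. Across the 73 genes Pearson's r between log length and the log2 ratio was −0.36, −0.49 and −0.36 in neurons, astrocytes and microglia, a description over genes that share the same libraries. Libraries 1 and 2 of neurons and of microglia also had the highest oligodendrocyte marker sums of their groups. The part of length or of these markers in the results was not tested.

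**Figure D5:**
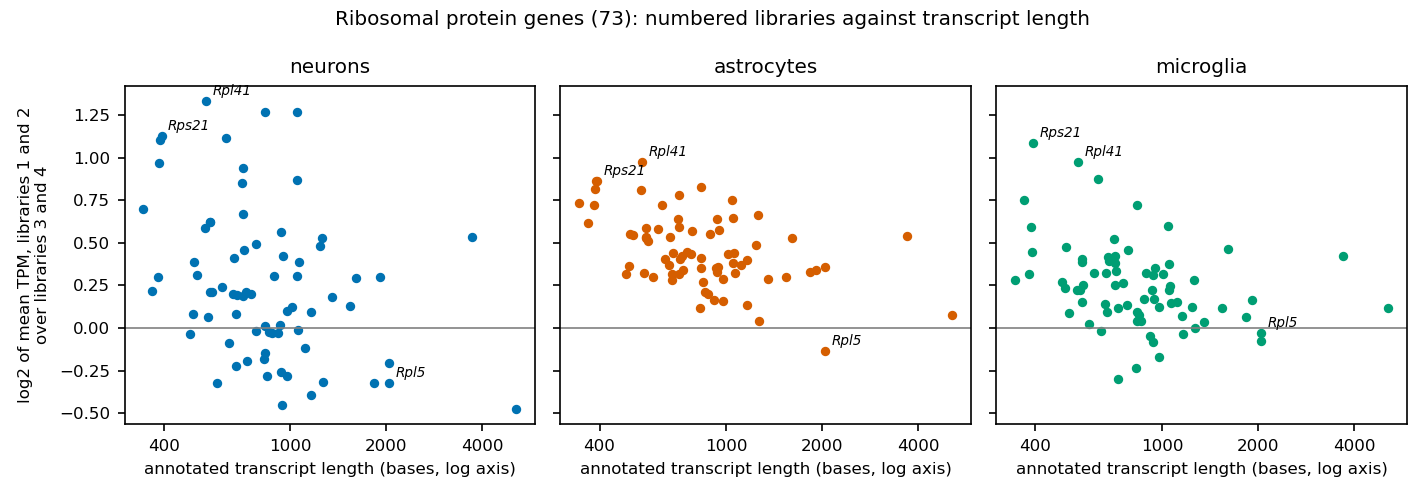
Log2 ratio of mean TPM in libraries 1 and 2 over libraries 3 and 4 (vertical axis) against annotated transcript length in bases (horizontal log axis) for the 73 core genes, by cell type. Short transcripts such as Rpl41 and Rps21 lie high and Rpl5 lies low in all 3 panels.

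Paralogs were set against their parental genes by ratios within a library, which need no scaling between libraries. Of the 8 paralogs 6 were tested, with a median log2 difference of 0.71 between neurons and astrocytes. Of the 6, 5 were higher in neurons, against 26.2% of all genes tested. Of these 5, Rps27l did not pass after length correction (0.15, adjusted p = 0.286, and 0.171 with the block). Ratios of 4 paralogs to their parents were compared between the 3 pairs of cell types by a two-sided exact permutation test over 5 and 5 libraries, adjusted over the 12 tests, for which the smallest possible p is 0.00794.

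Rpl22l1 is the paralog of Rpl22, a protein at the tunnel exit that can bind its paralog's RNA. Rpl22 stood at 168, 125, 159, 177 and 126 TPM in neurons, at 60.2, 67.4, 52.3, 47.3 and 40.2 TPM in astrocytes and at 102, 116, 130, 99.8 and 106 TPM in microglia. Rpl22l1 stood at 250, 257, 271, 240 and 312 TPM in neurons, at 174, 145, 211, 126 and 120 TPM in astrocytes and at 113, 109, 112, 80.9 and 94.3 TPM in microglia. Rpl22 was thus lowest in astrocytes and Rpl22l1 lowest in microglia, in each case without overlap, although Rpl22l1 differed from microglia by −0.10 in astrocytes after median-of-ratios scaling. The ratio of Rpl22l1 to Rpl22 was 1.82 ± 0.46 in neurons, 2.95 ± 0.69 in astrocytes and 0.920 ± 0.111 in microglia (SD, n = 5). It was 3.16-fold higher in astrocytes than in microglia (exact permutation test, adjusted p = 0.0106) and 1.63-fold higher in astrocytes than in neurons (exact permutation test, adjusted p = 0.019).

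Rpl36al, an autosomal copy of X-linked Rpl36a, outweighed its parent everywhere. Rpl36al had 592, 555, 689, 704 and 597 TPM in neurons, 358, 378, 358, 312 and 359 TPM in astrocytes and 638, 680, 675, 605 and 664 TPM in microglia. Astrocytes were the lowest without overlap, and neurons and microglia overlapped, although Rpl36al was higher in microglia than in neurons after median-of-ratios scaling, quantile normalization and length correction (adjusted p = 0.000152, 4.72e-05 and 3.97e-07). The ratio of Rpl36al to Rpl36a was 2.07 ± 0.19 in neurons, 2.38 ± 0.40 in astrocytes and 4.21 ± 0.54 in microglia. It was 2.03-fold higher in microglia than in neurons and 1.77-fold higher than in astrocytes (exact permutation tests, adjusted p = 0.0106 for each), and the ratios of neurons and astrocytes overlapped (adjusted p = 0.165, exact permutation test). With neuron and microglia libraries paired by number, the ratio was higher in microglia in 5 of 5 pairs. The exact test within pairs gave p = 0.0625, the smallest that 5 pairs allow. With 5 pairs this test could not pass whatever the values, so it cannot decide whether the call holds under the pairing.

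Rps27l, a paralog of Rps27 that p53 can induce, had 417 to 460 TPM in astrocyte libraries, 347 to 422 TPM in microglia libraries and 537 to 849 TPM in neuron libraries. Over all libraries Rps27l spanned a narrower range than Rps27, which had 583 to 3714 TPM. Its ratio to Rps27 was 0.254 ± 0.111 in neurons, 0.582 ± 0.155 in astrocytes and 0.188 ± 0.025 in microglia. In astrocytes this ratio was 2.41-fold that of neurons and 3.03-fold that of microglia (exact permutation tests, adjusted p = 0.0106 for each), and the ratios of neurons and microglia overlapped (exact permutation test, adjusted p = 0.325). Rpl7l1, a relative of Rpl7, had 35.5 to 64.6 TPM across all libraries and passed in none of the 3 comparisons. Other settings changed this: it was higher in microglia than in neurons by 0.83 after median-of-ratios scaling, 0.53 after quantile normalization and 0.65 after length correction on the log2 scale (adjusted p = 4.13e-07, 0.000191 and 3.98e-05). With the library number as a block it was higher in astrocytes and in microglia than in neurons (adjusted p = 0.0181 and 0.0435). Since Rpl7 itself was 2.06-fold higher in neurons than in astrocytes, the ratio was 2.54-fold higher in astrocytes than in neurons (exact permutation test, adjusted p = 0.0106).

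Rpl39l, a paralog known from male germ cells, stayed at or below 2.38 TPM in every library, and Rps27rt, a retrogene of Rps27, at 5.92 to 62.3 TPM. Rps27rt amounted to 1.75%, 1.62% and 1.63% of Rps27 in neurons, astrocytes and microglia, and Rpl10-ps3 to 2.88%, 2.27% and 2.80% of Rpl10. Like their parents, both copies were lower in astrocytes than in neurons and microglia, and since near-identical copies share reads, their values are uncertain. Rpl9-ps6, Rps18-ps6, Rps18-ps5 and Rpl36a-ps1 ranged from 0 to 19.2 TPM. Of the 8 retrogene or pseudogene rows 5 were tested. Of these, 3 (Rpl10-ps3, Rpl9-ps6 and Rps18-ps6) were higher in neurons than in astrocytes, against 26.2% of all genes tested. The 6 members that did not reach the level for testing were Rps23rg1, Rps6ka6, Rpl9-ps1, Rpl3l, the muscle paralog of Rpl3, Rpl10l, the testis paralog of Rpl10, and Rpl36-ps4. Rpl36-ps4 was listed at 0 in all libraries, and Rpl10l in all but 1.

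The kinases had lower levels than the core genes, apart from Rps6ka1 in microglia, where it reached the range of the least abundant core genes. They act downstream of growth factor signalling: the Rps6ka genes encode the RSK and MSK kinases, and Rps6kb1 and Rps6kb2 the S6 kinases that phosphorylate Rps6 under mTORC1. Of 9 tested, 3 were higher in neurons than in astrocytes (Rps6ka3, Rps6kl1 and Rps6kb1) and none lower, a share near the 26.2% of all genes tested. Some of these calls moved with the setting (limma). Rps6ka2 was lower in neurons without astrocyte library 2 (adjusted p = 0.015) and without all libraries numbered 1 and 2 (adjusted p = 0.00767). Rps6ka1 was higher in neurons with length correction (adjusted p = 0.035). Rps6kb1 did not pass in a fit of only these groups (adjusted p = 0.0822). Rps6ka1, which encodes RSK1, was by far the highest kinase in microglia, at 68.1, 67.6, 100.7, 142 and 113 TPM. It had 4.71, 5.30, 7.66, 14.5 and 4.46 TPM in neurons and 3.22, 3.90, 6.81, 3.75 and 5.46 TPM in astrocytes. Microglia were 12.4-fold above neurons (adjusted p = 2.74e-09) and 17.4-fold above astrocytes (adjusted p = 3.78e-10), with neurons and astrocytes overlapping.

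Rps6ka2, encoding RSK3, was lowest in microglia, at 0.560 to 1.07 TPM, against 2.28 to 4.22 TPM in neurons and 1.97 to 13.7 TPM in astrocytes; astrocytes were 3.39-fold above microglia (adjusted p = 5.62e-05). Rps6ka3, encoding RSK2, had 1.87 to 5.23 TPM in neurons and was 2.23-fold above astrocytes (adjusted p = 0.000218) and 2.11-fold above microglia (adjusted p = 0.000253). Rps6kl1, at 2.92 to 4.72 TPM in neurons, was 2.26-fold above astrocytes and 2.68-fold above microglia. The S6 kinase genes differed less: Rps6kb1 had 8.70 to 14.3 TPM in neurons and 6.99 to 11.9 TPM in astrocytes, with overlap (adjusted p = 0.0488, and 0.122 without neuron library 5). Rps6kb2 was 1.87-fold higher in astrocytes than in microglia (adjusted p = 1.92e-05), and its neuron and astrocyte libraries overlapped (adjusted p = 0.114). Rps19bp1, which encodes a binding partner of Rps19, lay the other way from the core genes, at 40.4 to 47.5 TPM in astrocytes, 18.1 to 37.9 TPM in neurons and 17.9 to 25.1 TPM in microglia. It was 1.57-fold higher in astrocytes than in neurons (adjusted p = 0.00309) and 1.97-fold higher than in microglia (adjusted p = 4.25e-05).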

How the data were processed

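The deposited table holds TPM for 15 libraries. Per the labels' protocols, RNA was purified on columns, polyA RNA was copied to cDNA with PCR amplification, and sequencing was on a NovaSeq. DESeq2 1.36.0, RSEM 1.2.28, STAR 2.7.1a and Trim Galore 0.6.4 are named in the submitters' processing notes, with the mm10 genome; the parameters are not given in the sources used here. Every library column entered the fits, and no 2 columns were identical.

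Values were taken as log2(TPM + 1), and limma 3.58.1 (R 4.3.3) fitted 1 mean per cell type over all libraries with a variance trend and Benjamini-Hochberg adjustment over 13351 genes; folds on this scale understate differences of low genes. The fit was tested on simulated data. Coordinates are those of GENCODE vM21. Named core genes are the 8 with the largest passing difference in each direction, those without overlap first, the 5 most and 3 least abundant, the non-core rows with their parents, and the genes outside the symbol pattern; Rpl5, Rpl6, Rpl28 and Rps25 were added after their values were seen. A few results for single genes are not reported here, and the plots of single genes leave these genes out. The members and lists were chosen with earlier results of these data known. Python 3.11.15 with scipy 1.17.1 was used for sums, ratios and exact tests.

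Replicate numbers are shared between cell types but not explained in the labels. As a check from the data, deviations of same-numbered libraries from their group means were correlated over genes. All 5 correlations were above 0.1 for neurons with microglia (0.216 to 0.382), so the numbers were taken to pair these libraries. For neurons with astrocytes (−0.0329 to 0.233) and astrocytes with microglia (−0.0110 to 0.249) they were not. Libraries of different numbers were not compared in this way. The check therefore cannot tell a pairing from a trait that libraries of several numbers share, and the pairing is an assumption.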

Additional observations from a re-analysis of the deposited data

Results flagged for a closer look

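In 3 of 165 groups of 5 libraries examined for single members, the highest library lay far from the other 4 by Dixon's criterion, which chance alone meets in about 1 of 20 groups. Rps6ka5, a gene of the MSK kinases, had 2.53 TPM in neuron library 3, where the other neuron libraries had 1.71 to 1.92 TPM. Rps18-ps5, a pseudogene of Rps18, had 5.53 TPM in microglia library 2 against 1.88 to 2.38 TPM in the others. Fau had 842 TPM in neuron library 3 against 754 to 767 TPM in the others.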

How the results depend on the processing

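The settings varied were the pseudocount (0.1), the filter (none, or 5 TPM), quantile normalization, median-of-ratios scaling, scaling without ribosomal genes, fits of 2 groups, array weights, no variance trend, the replicate block, each library left out, sets of numbered libraries left out and, chosen after seeing the data, a length correction with and without the block and an exact test of paralog ratios within numbered pairs. Neurons against astrocytes kept 72 or 73 core genes higher in neurons throughout; the core median was 0.99 with length correction, with or without the replicate block. With the replicate block alone 73, 64 and 55 core genes passed in the main direction of the 3 comparisons. For neurons against microglia the core genes higher in neurons numbered 2 with median-of-ratios scaling, 34 with quantile normalization, 12 with length correction and 26 with length correction and block; those higher in microglia numbered 6, 2, 10 and 10, and the core medians were 0.05, 0.26, 0.06 and 0.06. For astrocytes against microglia the core medians were −1.20 (median-of-ratios), −0.76 (quantile) and −0.83 (length correction, with or without the block). Rpl38 became the 1 core gene higher in astrocytes with array weights, the replicate block, either length correction, or microglia libraries 1 and 2 or all libraries numbered 1 and 2 left out; with 1 library left out at a time that count was 0 to 1 (1 without astrocyte 4, microglia 1 or microglia 2). The SD of the core differences was 0.44 for neurons against microglia without microglia libraries 1 and 2, and 0.45 for astrocytes against microglia without those or without all libraries numbered 1 and 2. The microglia mean of the core sum was 50902 with median-of-ratios scaling. Direction changed in 7 cases: neurons against microglia, Rpl5 was −0.41 with median-of-ratios scaling and −0.21 with length correction (with or without the block), Rpl12 was −0.07 with median-of-ratios scaling and Rps25 −0.33 with length correction (with or without the block); astrocytes against microglia, Rpl22l1 was −0.10 with median-of-ratios scaling. The cause was not tested. TPM keep no depth, so counting error is unknown.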
